A study of Homo sapiens with 6 samples.

Results

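The genes of the ATF4 amino acid response and of the cytosolic aminoacyl-tRNA synthetases were examined in LS 174T cells, an established line from a human colon tumour that produces mucin and is used as a model of goblet cells. The 39 genes were chosen by symbol out of 24462 symbols, by a rule that names genes and sets no threshold on a measured value. They comprised 7 genes of serine, glycine and asparagine synthesis, 4 of proline and cysteine synthesis, 8 stress effectors and 20 genes of cytosolic tRNA synthetases. Cells grown in serum-containing RPMI 1640 medium were given 4 mM propionate for 4 h (n = 3 libraries) or were left untreated as control (n = 3 libraries). All libraries came from this 1 established line, and whether those within a group stem from different cultures is not stated, so p-values measure only the spread between these libraries. RNA was sequenced with a QuantSeq kit, which, going by its name, sequences the 3′ ends of polyadenylated RNA. In such bulk RNA, fewer cells with a transcript and less of it per cell cannot be told apart.

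ATF4 is the transcription factor of the integrated stress response. Shortage of amino acids, endoplasmic reticulum stress or mitochondrial stress activates kinases that phosphorylate the initiation factor eIF2, which slows most translation but favours that of the ATF4 mRNA. ATF4 then binds C/EBP-ATF response elements together with C/EBP partners and raises enzymes that make asparagine and serine, amino acid transporters, tRNA synthetases and a set of stress effectors. Because ATF4 protein is set largely by translation, mRNA counts do not measure it. Cells that secrete mucin make large amounts of protein and so draw heavily on amino acids and charged tRNA.

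The libraries held 11603288 to 12746170 reads, and 13605 genes passed the filter on low counts. All 39 members were among them. Of the tested genes, 4659 passed at an adjusted p under 0.05 (quasi-likelihood test in edgeR with Benjamini-Hochberg adjustment over the whole table), which is 34.2%. By direction, 17.2% were higher and 17.0% were lower with propionate. Levels are given as CPM, reads per 1000000 reads of the library after trimmed-mean (TMM) scaling. The 14 listed epithelial and goblet markers summed to between 5525 and 6250 CPM in propionate libraries and to between 4890 and 5842 CPM in control libraries, with MUC2, MUC5AC, TFF3 and EPCAM all well detected and KRT20 at 1.37 CPM with propionate and 1.26 CPM in control. The 4 leukocyte markers summed to between 4.89 and 7.64 CPM with propionate and to between 2.33 and 3.77 CPM in control, with CD3E at 0 reads in every library and PTPRC at 3 reads over the propionate libraries. The 5 fibroblast markers summed to between 4.91 and 7.21 CPM with propionate and to between 2.91 and 6.38 CPM in control, with DCN at 0 reads in every library. The 3 endothelial markers had no read in propionate libraries and summed to between 0.0856 and 0.175 CPM in control libraries. Of these markers of other cell types, COL1A1 and CD14 were among those that passed as higher, at means of 3.68 and 4.79 CPM with propionate and 0.886 and 2.83 CPM in control. The part of these low counts in any result below was not tested.

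The core of the C/EBP-ATF response element, TGATGNAA on either strand (its reverse complement being TTNCATCA), was looked up in RefSeq promoter windows of build GRCh38.p14, each 250 bases before to 50 bases after a start site. Of 35116 windows, 3.62% held a match. RefSeq windows were found for 31 members, and 9 of these members had a match at 1 start site. They were ASNS, CHAC1 and the synthetase genes AARS, CARS, GARS, IARS, MARS, NARS and TARS. By gene, a match was present in 29% of these members and in 4.46% of the 27305 genes with a window. The sequences are shown to let the elements be compared with how each gene moved. Each is 30 bases on the gene's own strand, with the match in capitals:
ASNS, chr7:97872458-97872487, minus strand: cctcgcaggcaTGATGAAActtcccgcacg
CHAC1, chr15:40953251-40953280, plus strand: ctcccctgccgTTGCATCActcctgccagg
AARS, chr16:70289675-70289704, minus strand: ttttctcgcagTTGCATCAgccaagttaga
CARS, chr11:3057407-3057436, minus strand: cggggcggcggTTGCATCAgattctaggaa
GARS, chr7:30594834-30594863, plus strand: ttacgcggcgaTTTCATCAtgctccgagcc
IARS, chr9:92293692-92293721, minus strand: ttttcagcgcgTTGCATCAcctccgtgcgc
MARS, chr12:57488053-57488082, plus strand: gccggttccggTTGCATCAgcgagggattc
NARS, chr18:57621804-57621833, minus strand: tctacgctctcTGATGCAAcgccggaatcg
TARS, chr5:33440956-33440985, plus strand: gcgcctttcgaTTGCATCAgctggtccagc
Read on the motif's own strand, ASNS and GARS carried TGATGAAA and the other 7 carried TGATGCAA. In CARS, IARS, MARS, NARS and TARS the first base of the match lay no more than 14 bases from the start site, while it was 33 bases before the start in GARS, 68 in ASNS, 187 in AARS and 209 in CHAC1. Windows of PSAT1, CBS, SESN2, DDIT4, STC2, ATF5 and FARSA, all genes that passed the test below, held no match, which says only that these letters are absent from those windows. No entry was found for PSPH, SHMT2, PYCR1, NUPR1, DARS, LARS, VARS and YARS.

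Propionate was followed by changes in 12 of the 39 members, 4 of them higher and 8 lower. That share, 30.8%, was near the 34.2% of all tested genes and so is no result about the members as a set. Their median log2 fold change was -0.05, against -0.01 over all tested genes. By role, 6 of 8 stress effectors passed, 1 of 7 serine, glycine and asparagine genes, 1 of 4 proline and cysteine genes, and 4 of 20 synthetase genes, and differences between roles were not tested. Libraries of the groups did not overlap for 15 of the 39 members, while 45.2% of all tested genes had such separation.

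**Figure D1:**
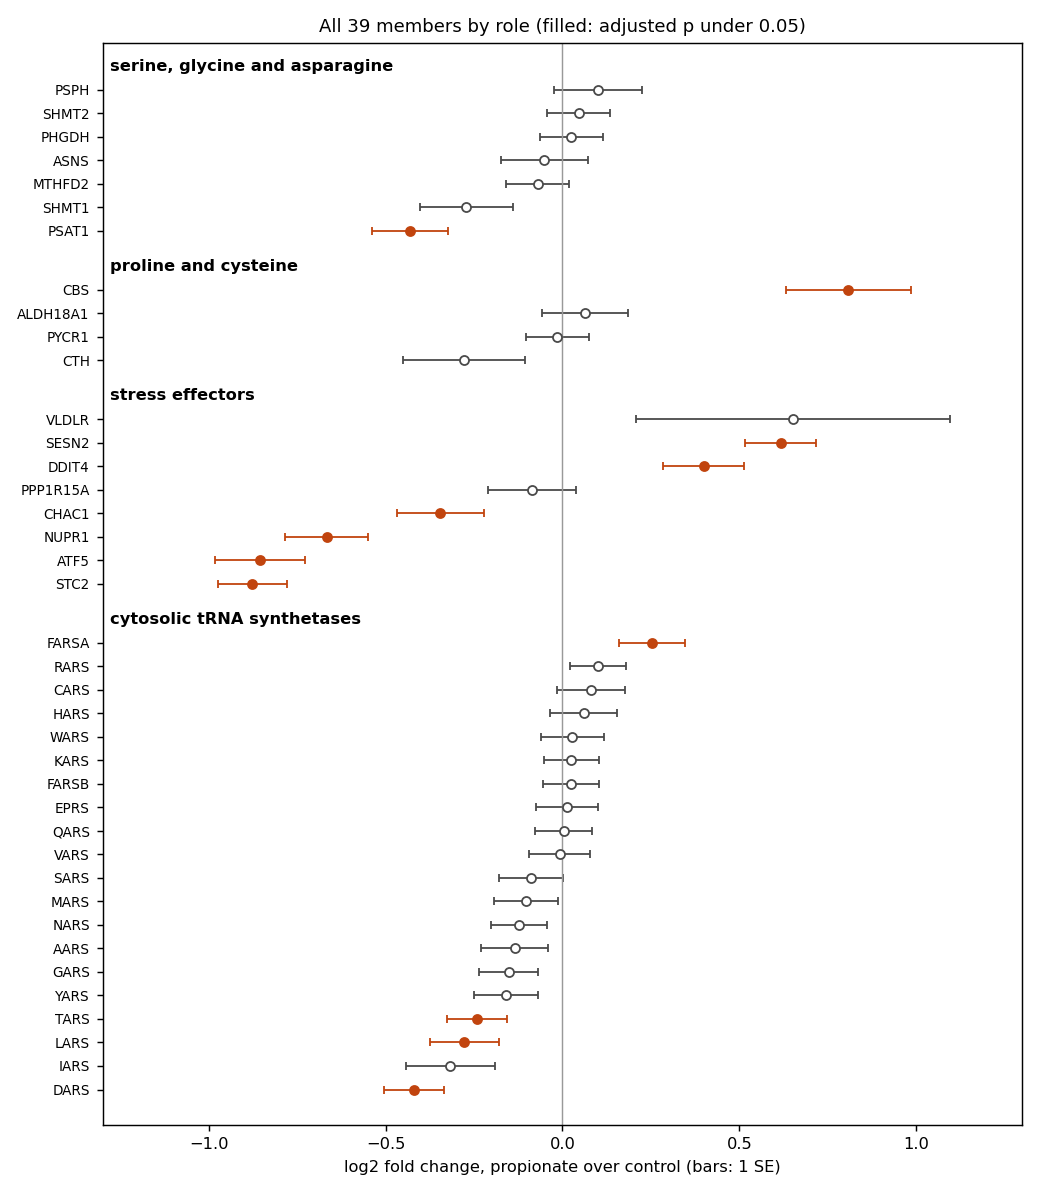
Log2 fold change (propionate over control, x axis) of all 39 members, listed by role, with bars of 1 SE; filled points passed an adjusted p under 0.05. Stress effectors spread from -0.88 to 0.65, and the 20 synthetase genes lay between -0.42 and 0.25.

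Among the stress effectors, STC2, ATF5, NUPR1 and CHAC1 fell, SESN2 and DDIT4 rose, and VLDLR and PPP1R15A did not pass. The median log2 fold change of the 8 genes was -0.22, and their summed level was 392.2 to 461.8 CPM in propionate libraries and 539.8 to 614.4 CPM in control libraries, with no overlap. NUPR1 was the largest part of that sum, at means of 178.9 CPM with propionate and 283.8 CPM in control. The sum therefore does not show a fall shared by the role.

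STC2 encodes stanniocalcin-2, a secreted glycoprotein. It had 38.9, 43.0 and 44.5 CPM in propionate libraries 1 to 3, against 70.6, 82.0 and 79.3 CPM in control libraries 1 to 3. All 3 propionate libraries lay far below all 3 controls. The gene was 1.84-fold lower (log2 fold change -0.88, SE 0.098, edgeR adjusted p = 1.59e-06).

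ATF5 encodes a transcription factor that is translated under eIF2 phosphorylation much as ATF4 is. Its level was 51.9, 43.3 and 34.5 CPM with propionate, against 90.1, 72.5 and 72.3 CPM in control. The groups did not overlap, although propionate libraries differed among themselves. ATF5 was 1.81-fold lower (log2 fold change -0.85, SE 0.127, edgeR adjusted p = 3.74e-05). NUP62 overlaps ATF5 on the opposite strand and was lower too (log2 fold change -0.39, edgeR adjusted p = 0.00176), and as it is not stated whether counting used strand, reads from the overlap may belong to either gene; the part of this in the result was not tested.

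NUPR1, a small chromatin-associated stress protein gene, had 141.6, 205.8 and 189.3 CPM with propionate, against 241.9, 316.4 and 293.2 CPM in control. Library 1 was the lowest of its group in both conditions, and the groups did not overlap. NUPR1 was 1.59-fold lower (log2 fold change -0.67, SE 0.117, edgeR adjusted p = 0.000216).

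CHAC1 encodes a cytosolic enzyme that degrades glutathione and is among the most used readouts of ATF4 activity. It had 24.2, 29.6 and 24.7 CPM with propionate, against 29.9, 37.7 and 32.1 CPM in control. The highest propionate library came close to the lowest control without overlap. CHAC1 was 1.27-fold lower (log2 fold change -0.35, SE 0.122, edgeR adjusted p = 0.0349). This call ended without control library 2, propionate library 1 or propionate library 3 (adjusted p = 0.174, 0.126 and 0.102), and DESeq2 gave 0.0556. In the fit with the replicate block, in which libraries of the same number form a pair, and with each library's trend on transcript GC content removed, the log2 fold change was -0.56 (adjusted p = 2.2e-05). Its element lies in the 250 bases before the start site, chr15:40953221-40953470 on the plus strand of GRCh38.p14, shown whole because CHAC1 was the effector with a match, in capitals:
CHAC1 upstream: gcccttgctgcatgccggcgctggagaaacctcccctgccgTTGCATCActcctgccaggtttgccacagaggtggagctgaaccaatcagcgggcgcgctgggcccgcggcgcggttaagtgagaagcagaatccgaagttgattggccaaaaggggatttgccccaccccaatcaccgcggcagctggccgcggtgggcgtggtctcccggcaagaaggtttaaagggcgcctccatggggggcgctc

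SESN2 and DDIT4 both restrain the growth kinase complex mTORC1: sestrin-2 is a leucine-binding sensor, and DDIT4 (REDD1) acts through the TSC complex. Both genes also respond to stresses other than amino acid shortage, such as oxidative stress for SESN2 and hypoxia for DDIT4. SESN2 had 62.5, 62.5 and 62.0 CPM with propionate, against 41.3, 44.7 and 36.1 CPM in control. The propionate libraries were almost equal and stood clear of every control. SESN2 was 1.53-fold higher (log2 fold change 0.62, SE 0.1002, edgeR adjusted p = 9.44e-05). DDIT4 had 43.3, 53.0 and 52.3 CPM with propionate, against 34.8, 34.8 and 42.9 CPM in control. Propionate library 1 was barely above control library 3, so the separation was narrow. DDIT4 was 1.32-fold higher (log2 fold change 0.40, SE 0.114, edgeR adjusted p = 0.0105), and without control library 2 its adjusted p was 0.05045. With the replicate block and the GC trend removed, its log2 fold change was 0.26 (adjusted p = 0.0146).

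PPP1R15A encodes GADD34, the phosphatase subunit that reverses eIF2 phosphorylation. It had 28.7, 22.4 and 27.7 CPM with propionate, against 30.4, 25.8 and 27.5 CPM in control, and the groups overlapped (log2 fold change -0.09, SE 0.124, edgeR adjusted p = 0.632). VLDLR, a lipoprotein receptor gene, was scarce, with 63 reads over the propionate libraries and 38 over the controls. Its log2 fold change of 0.65 had an SE of 0.445 (edgeR adjusted p = 0.28), and a difference of that size was not detectable at this depth.

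**Figure D2:**
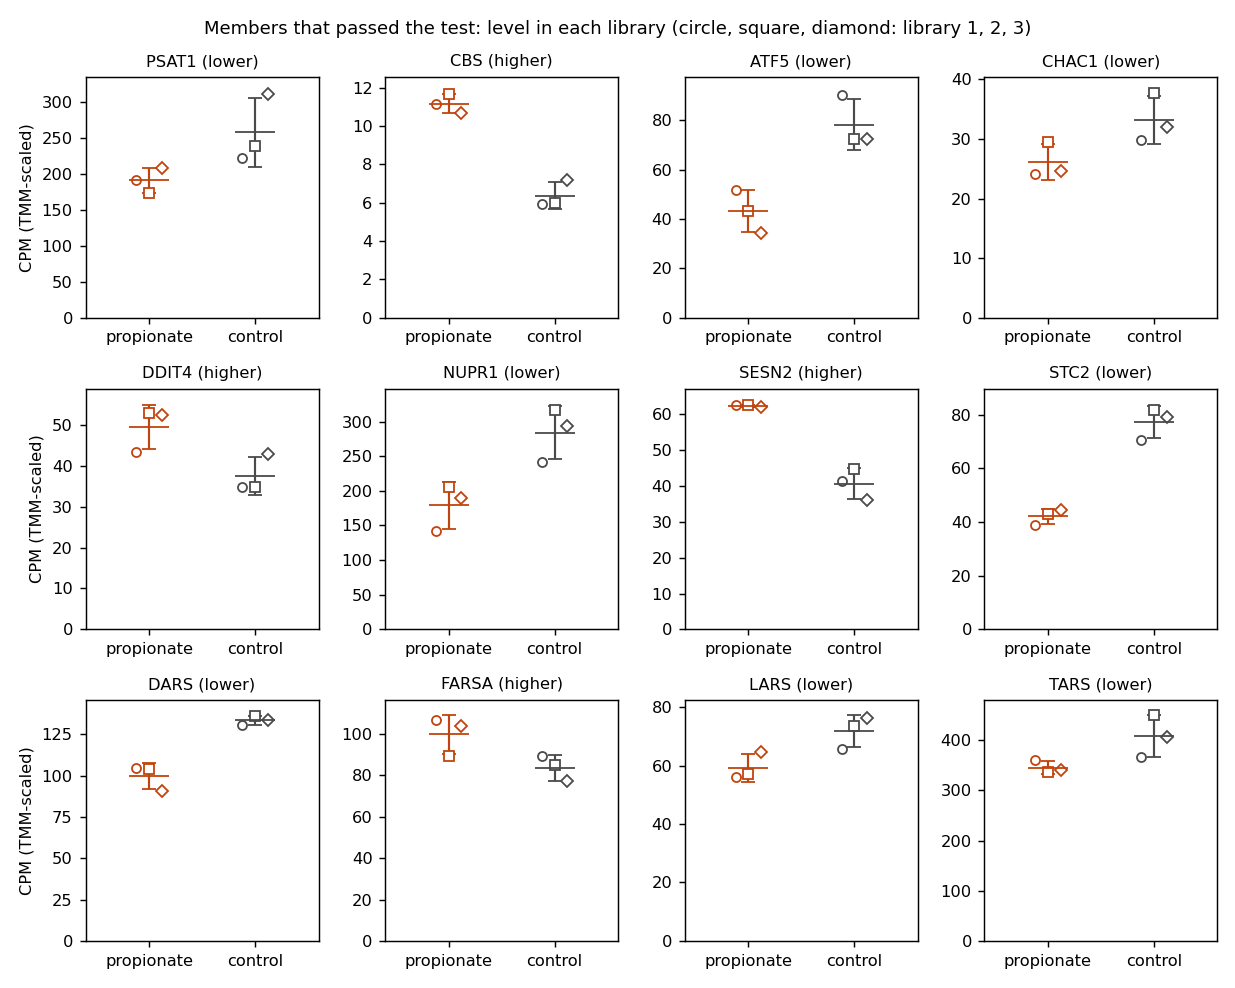
CPM (y axis, from 0) in each of the 3 propionate and 3 control libraries for the 12 members that passed the test; the horizontal line is the mean and the bar 1 SD. FARSA was the member of the 12 whose groups overlapped; in SESN2 the propionate libraries sat between 62.0 and 62.5 CPM, above all controls.

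Among the 7 genes of serine, glycine and asparagine synthesis, PSAT1 fell and none rose. PSAT1, the transaminase of the second step of serine synthesis, had 192.2, 173.5 and 207.9 CPM with propionate, against 221.9, 239.5 and 311.9 CPM in control. Control library 3 was the highest of all, and the groups did not overlap. PSAT1 was 1.35-fold lower (log2 fold change -0.43, SE 0.108, edgeR adjusted p = 0.00424). Without control library 3 it was still lower, by less (log2 fold change -0.28, adjusted p = 0.0299).

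The other members of this role did not pass. PHGDH, the dehydrogenase that opens serine synthesis, had 252.5, 289.0 and 295.6 CPM with propionate, against 245.2, 299.3 and 278.0 CPM in control. Its groups overlapped throughout (log2 fold change 0.03, SE 0.0896, edgeR adjusted p = 0.859). PSPH, the phosphatase of the last step, averaged 33.7 ± 6.48 CPM with propionate and 31.4 ± 0.851 CPM in control (SD, n = 3 each; log2 fold change 0.10, edgeR adjusted p = 0.576). ASNS, the asparagine synthetase and a classical ATF4 target, had 96.1, 151.5 and 134.0 CPM with propionate, against 119.1, 139.6 and 136.5 CPM in control. Propionate library 1 was the lowest and propionate library 2 the highest of the 6 libraries (log2 fold change -0.05, SE 0.122, edgeR adjusted p = 0.784). No difference in ASNS was detectable; its promoter element is shown above.

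Of the folate-linked genes of this role, SHMT1 in the cytosol and SHMT2 in mitochondria divide serine into glycine and a one-carbon unit. MTHFD2 acts on that unit in mitochondria. MTHFD2 had 109.3, 103.0 and 124.9 CPM with propionate, against 114.5, 115.7 and 123.8 CPM in control, with overlapping groups (log2 fold change -0.07, SE 0.0891, edgeR adjusted p = 0.582). SHMT2 averaged 253.3 ± 12.4 CPM with propionate and 245.4 ± 28.4 CPM in control (SD, n = 3 each; log2 fold change 0.05, edgeR adjusted p = 0.733). SHMT1 averaged 45.1 ± 8.15 CPM with propionate and 54.5 ± 9.0 CPM in control (SD, n = 3 each; log2 fold change -0.27, edgeR adjusted p = 0.118). SHMT1 passed as lower with the replicate block (edgeR adjusted p = 0.0207) and with no filter on low counts (edgeR adjusted p = 0.0427). It also passed with the block and the GC trend removed (log2 fold change -0.30, edgeR adjusted p = 0.0113). With single libraries left out it did not pass, and its log2 fold change ran from -0.39 to -0.13 (edgeR adjusted p between 0.0561 and 0.492), smallest without propionate library 2. SMCR8, which overlaps SHMT1 on the opposite strand, was lower (log2 fold change -0.42, edgeR adjusted p = 0.0387), and its part in the result was not tested. MTHFD2 and SHMT2 overlap SLC4A5 and NDUFA4L2 on the opposite strand, and neither of those passed.

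Of the 4 proline and cysteine genes, CBS rose. CBS encodes cystathionine beta-synthase, which joins homocysteine and serine in the first step towards cysteine. It had 11.2, 11.7 and 10.7 CPM with propionate, against 5.95, 5.99 and 7.17 CPM in control. The groups were far apart for a gene of this low level. CBS was 1.75-fold higher (log2 fold change 0.81, SE 0.176, edgeR adjusted p = 0.00143). CTH, the next enzyme of that route, averaged 9.66 ± 1.86 CPM with propionate and 11.7 ± 0.415 CPM in control (SD, n = 3 each; log2 fold change -0.28, SE 0.172, edgeR adjusted p = 0.23). For proline synthesis, ALDH18A1 and PYCR1 had log2 fold changes of 0.06 and -0.01 and overlapping groups. PYCR1 had a value of 0.00 with library totals and 0.01 with upper-quartile factors, and with the replicate block and the GC trend removed it was -0.24 (edgeR adjusted p = 0.00044).

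Aminoacyl-tRNA synthetases load each tRNA with its amino acid, and their genes are a classical target group of ATF4. Of the 20 cytosolic synthetase genes, FARSA rose, DARS, LARS and TARS fell, and 16 did not pass, so that 20% were called against 34.2% of all tested genes. Their median log2 fold change was -0.05. Summed over the 20 genes, the level was 3151 to 3256 CPM in propionate libraries and 3218 to 3534 CPM in control libraries, with a narrow overlap.

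DARS encodes the aspartyl-tRNA synthetase. It had 104.3, 104.2 and 90.5 CPM with propionate, against 130.3, 136.2 and 133.5 CPM in control. The groups were well separated. DARS was 1.34-fold lower (log2 fold change -0.42, SE 0.0853, edgeR adjusted p = 0.000818), and it passed in each of the fits on 5 libraries, with an adjusted p of 0.00167 to 0.00653. It also passed with the replicate block and the GC trend removed (log2 fold change -0.30, adjusted p = 0.000155).

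LARS, the leucyl-tRNA synthetase gene, had 55.9, 57.1 and 64.7 CPM with propionate, against 65.5, 73.6 and 76.1 CPM in control. Propionate library 3 lay just under control library 1. LARS was 1.21-fold lower (log2 fold change -0.28, SE 0.0965, edgeR adjusted p = 0.032). Its adjusted p was 0.0894 without control library 2, 0.0992 without control library 3, 0.116 without propionate library 1 and 0.104 without propionate library 2.

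TARS, the threonyl-tRNA synthetase gene, had 360.3, 335.9 and 339.9 CPM with propionate, against 367.4, 450.8 and 406.9 CPM in control. Control library 1 was close to the propionate libraries. TARS was 1.18-fold lower (log2 fold change -0.24, SE 0.0845, edgeR adjusted p = 0.0327). Its adjusted p was 0.182 without control library 2, 0.104 without propionate library 2, 0.082 without propionate library 3 and 0.0544 with upper-quartile factors.

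FARSA and FARSB encode the subunits of 1 enzyme, phenylalanyl-tRNA synthetase. FARSA had 106.7, 89.3 and 103.7 CPM with propionate, against 89.6, 84.8 and 77.1 CPM in control, and propionate library 2 overlapped control library 1. FARSA was 1.19-fold higher (log2 fold change 0.25, SE 0.0938, edgeR adjusted p = 0.0428). Its adjusted p was 0.0824 without control library 2, 0.164 without control library 3, 0.17 without propionate library 1, 0.119 without propionate library 3 and 0.0525 by DESeq2. FARSB had a log2 fold change of 0.02 (SE 0.0789, edgeR adjusted p = 0.853). Whether the subunits differed was not tested.

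Of the synthetase genes that did not pass, IARS came nearest. It had 70.5, 56.8 and 69.3 CPM with propionate, against 70.8, 72.1 and 101.9 CPM in control. Control library 3 stood far above the rest, and the other controls almost met the propionate libraries (log2 fold change -0.32, SE 0.125, edgeR adjusted p = 0.0563). IARS passed as lower without control library 1 (adjusted p = 0.0197), without control library 2 (adjusted p = 0.0358), with no filter on low counts (adjusted p = 0.006946) and with the replicate block (adjusted p = 0.00289). Without control library 3 its log2 fold change was -0.13 (adjusted p = 0.409), and with the block and the GC trend removed it was -0.18 (adjusted p = 0.0626). GARS, whose gene serves cytosol and mitochondria, had 101.8, 108.3 and 112.8 CPM with propionate, against 123.7, 113.9 and 121.1 CPM in control. Its groups were separated by a small margin (log2 fold change -0.15, edgeR adjusted p = 0.17, and 0.0451 with the replicate block). NARS also passed with the block (log2 fold change -0.12, edgeR adjusted p = 0.242, and 0.0444 with the replicate block), but with the GC trend removed as well its log2 fold change was -0.014 (adjusted p = 0.845). WARS, which interferon also induces, had 84.2, 83.8 and 78.5 CPM with propionate, against 75.6, 87.3 and 78.8 CPM in control (log2 fold change 0.03, edgeR adjusted p = 0.84), and WDR25 on its opposite strand was higher (log2 fold change 0.41, edgeR adjusted p = 0.0409). The remaining genes, AARS, CARS, EPRS, FARSB, HARS, KARS, MARS, QARS, RARS, SARS, VARS and YARS, had log2 fold changes between -0.16 and 0.10. On the opposite strand MARS overlaps DDIT3, HARS overlaps HARS2 and WDR55, KARS overlaps TERF2IP and YARS overlaps S100PBP. Reads of these genes may be mixed.

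Transcript GC content was set against these small differences. It was taken over whole transcripts, while the kit, going by its name, sequences 3′ ends. DARS, LARS and TARS, the lower genes, had transcripts of 44.5%, 42.2% and 44.8% GC, and FARSA, the higher one, had 61.6%, against a median of 50.8% over the 20 genes. Of other genes at low GC content, IARS (43.65%) and NARS (45.55%) had log2 fold changes of -0.32 and -0.12. EPRS (42.5%) and FARSB (41.6%) had 0.01 and 0.02. At high GC content, GARS (60.4%) had -0.15 and VARS (62.6%) -0.01. The 20 genes are not independent and share their libraries. Across them, GC content and log2 fold change had a Pearson correlation of 0.427 and a Spearman correlation of 0.301. Across the 12722 tested genes with a GC value these were 0.255 and 0.266. With each library's GC trend removed in the fit with the replicate block, LARS had a log2 fold change of -0.14 (edgeR adjusted p = 0.114), TARS of -0.12 (adjusted p = 0.0842) and FARSA of 0.04 (adjusted p = 0.674), and none of these passed. In that fit AARS, DARS, GARS and VARS passed as lower and EPRS, FARSB and RARS as higher. The Pearson correlation over the 20 genes was then -0.308.

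**Figure D3:**
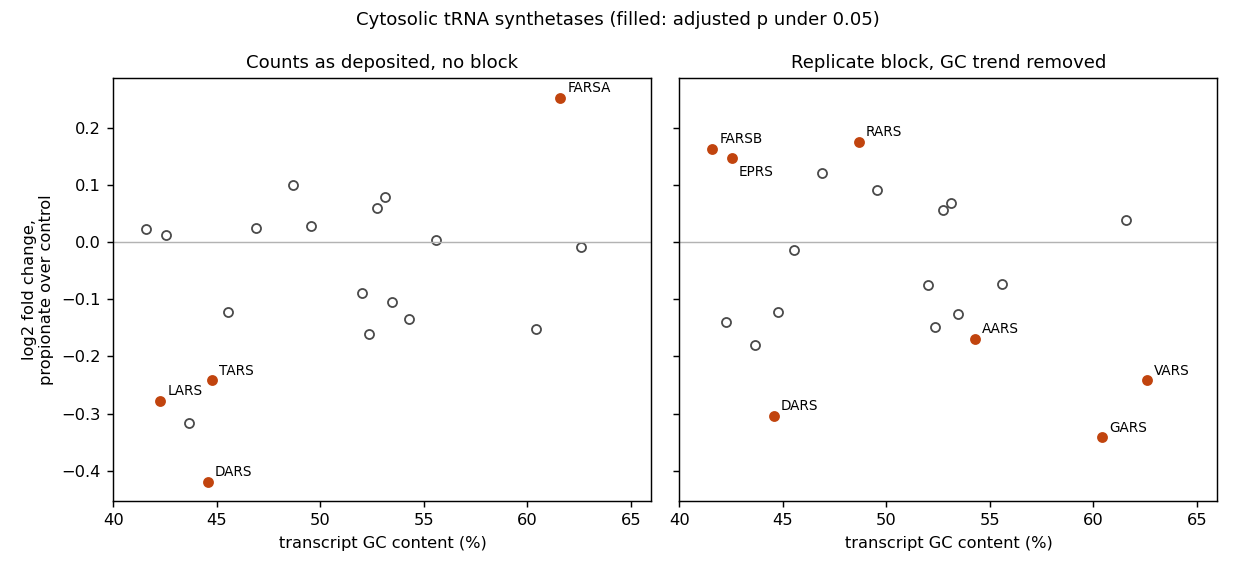
Log2 fold change (propionate over control, y axis) against transcript GC content (x axis, %) for the 20 cytosolic synthetase genes, from the counts without block (left) and from the fit with the replicate block and the GC trend removed (right); filled points passed an adjusted p under 0.05. DARS was below 0 and filled in both panels, while FARSA, LARS and TARS were filled only on the left.

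Of the 16 synthetase genes with a promoter window, the 7 with the response element had a median log2 fold change of -0.14, and 6 of them were below 0. The 9 without it had a median of 0.03, and 1 of them, SARS, was below 0. TARS was the gene with the element that passed, while CARS, with the same TTGCATCA, had a log2 fold change of 0.08. With the block and the GC trend removed, the medians were -0.13 with the element and 0.09 without it, with 6 of 7 and 2 of 9 genes below 0. The median GC content was 53.1% with the element and 49.5% without it. DARS, LARS, VARS and YARS had no window and are in neither set. All of them were below 0, with log2 fold changes of -0.42, -0.28, -0.01 and -0.16, and DARS and LARS passed as lower. No test was made of this difference, and most of the genes in both sets did not pass on their own.

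In mammals 8 of these synthetases sit in a multi-synthetase complex, EPRS, IARS, LARS, MARS, QARS, RARS, KARS and DARS, held together by the scaffolds AIMP1, AIMP2 and EEF1E1. The 3 scaffold genes all fell. AIMP2 had 151.3, 136.7 and 142.3 CPM with propionate, against 199.6, 201.4 and 178.8 CPM in control, with a clear gap between the groups. It was 1.35-fold lower (log2 fold change -0.43, SE 0.0828, edgeR adjusted p = 0.000496). AIMP2 overlaps EIF2AK1 on the opposite strand, which was lower as well (log2 fold change -0.24, edgeR adjusted p = 0.0181). AIMP1 was 1.247-fold lower (log2 fold change -0.32, edgeR adjusted p = 0.00602) and EEF1E1 1.29-fold lower (log2 fold change -0.37, edgeR adjusted p = 0.0244). EEF1E1 lost its call without control library 2, control library 3 or propionate library 2 (adjusted p = 0.052, 0.123 and 0.13). With the block and the GC trend removed AIMP2 passed (adjusted p = 8.74e-07), and AIMP1 and EEF1E1 did not (log2 fold change -0.15 and -0.21, adjusted p = 0.0601 and 0.0748). Of the complex's 11 genes 5 were lower and none higher, against 34.2% of all tested genes called and 17.0% lower, and 3 of the 5, AIMP1, EEF1E1 and LARS, did not pass with the block and the GC trend removed. TBCK, opposite AIMP1, was higher (log2 fold change 0.67, edgeR adjusted p = 0.0154).

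Most mitochondrial synthetases are encoded by separate genes, GARS being an exception named above. Of 17 such separate genes, 1 was higher and 6 were lower, with a median log2 fold change of -0.07. That is 41.2% of the list against 34.2% of all tested genes. WARS2 was 1.74-fold lower, at 9.77, 12.6 and 10.9 CPM with propionate and 19.4, 16.5 and 21.9 CPM in control (edgeR adjusted p = 0.00055), while its cytosolic counterpart WARS did not pass. SARS2 was 1.48-fold lower (edgeR adjusted p = 0.000785) and YARS2 1.45-fold lower (edgeR adjusted p = 0.00502), with SARS and YARS not passing. On the opposite strand MRPS12 overlaps SARS2 and DNM1L overlaps YARS2 (log2 fold change 0.02 and 0.09, edgeR adjusted p = 0.893 and 0.532). The part of these overlaps was not tested. PARS2 was 1.6-fold higher (edgeR adjusted p = 0.00151).

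Upstream of the members, the transcript of ATF4 itself fell. ATF4 had 535.9, 698.9 and 588.0 CPM with propionate, against 789.6, 965.3 and 740.0 CPM in control. Library 2 was the highest in both conditions, and its propionate value lay below every control. ATF4 was 1.37-fold lower (log2 fold change -0.45, SE 0.103, edgeR adjusted p = 0.0021). TRIB3, a pseudokinase gene that ATF4 induces and whose product restrains ATF4, had 34.5, 34.2 and 31.3 CPM with propionate, against 53.2, 65.0 and 57.3 CPM in control. It was 1.75-fold lower with no overlap (log2 fold change -0.81, SE 0.104, edgeR adjusted p = 8.06e-06). CEBPG, a dimer partner of ATF4, was 1.33-fold lower (log2 fold change -0.41, edgeR adjusted p = 0.00833, and 0.0525 without propionate library 2). With the block and the GC trend removed its log2 fold change was -0.27 (adjusted p = 0.0163).

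CEBPB, another dimer partner, was 1.41-fold higher (log2 fold change 0.49, SE 0.123, edgeR adjusted p = 0.00413). Its transcript has 66.2% GC, and with the block and the GC trend removed its log2 fold change was 0.20 (adjusted p = 0.0711). EIF2AK4, the kinase GCN2 that senses uncharged tRNA, was 1.22-fold higher (log2 fold change 0.28, edgeR adjusted p = 0.0403). This call ended without control library 1, control library 3, propionate library 2 or propionate library 3 (adjusted p = 0.166, 0.0709, 0.16 and 0.0688) and by DESeq2 (adjusted p = 0.0605). EIF2AK4 passed with the replicate block (edgeR adjusted p = 0.00653). With the GC trend removed as well, its log2 fold change was 0.38 (edgeR adjusted p = 0.000379). ATF3 had 18.4, 13.6 and 16.6 CPM with propionate, against 19.2, 16.9 and 16.3 CPM in control (log2 fold change -0.11, edgeR adjusted p = 0.613). DDIT3, which encodes the stress factor CHOP, had 59.4, 74.2 and 66.6 CPM with propionate, against 63.5, 68.4 and 63.8 CPM in control (log2 fold change 0.03, edgeR adjusted p = 0.828). Of 21 tested sensors and regulators in all, 2 were higher and 5 lower, 33.3% of the list against 34.2% of all tested genes.

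Of 12 amino acid transporter genes, a group that the same response raises, 1 rose and 5 fell, 50% of the list against 34.2% of all tested genes, with a median log2 fold change of -0.26. SLC7A11, the cystine importer xCT, had 43.4, 57.9 and 52.2 CPM with propionate, against 93.1, 110.3 and 102.5 CPM in control. No propionate library came near a control. SLC7A11 was 1.995-fold lower (log2 fold change -0.996, SE 0.106, edgeR adjusted p = 9.04e-07). Its antisense gene SLC7A11-AS1 had 16 reads over the propionate libraries and 92 over the controls. SLC7A1, an importer of cationic amino acids, was 1.51-fold lower (edgeR adjusted p = 1.78e-05), and SLC38A2, an importer of small neutral amino acids, was 1.45-fold lower (edgeR adjusted p = 6.21e-05). The riser was the glycine transporter gene SLC6A9, 1.53-fold higher at 11.3 to 16.9 CPM with propionate and 6.58 to 11.7 CPM in control (edgeR adjusted p = 0.0239). Its call ended without control library 1, control library 3 or propionate library 2 (adjusted p = 0.0532, 0.112 and 0.141), and CCDC24 on the opposite strand was higher too (log2 fold change 0.63, edgeR adjusted p = 0.00302).

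**Figure D4:**
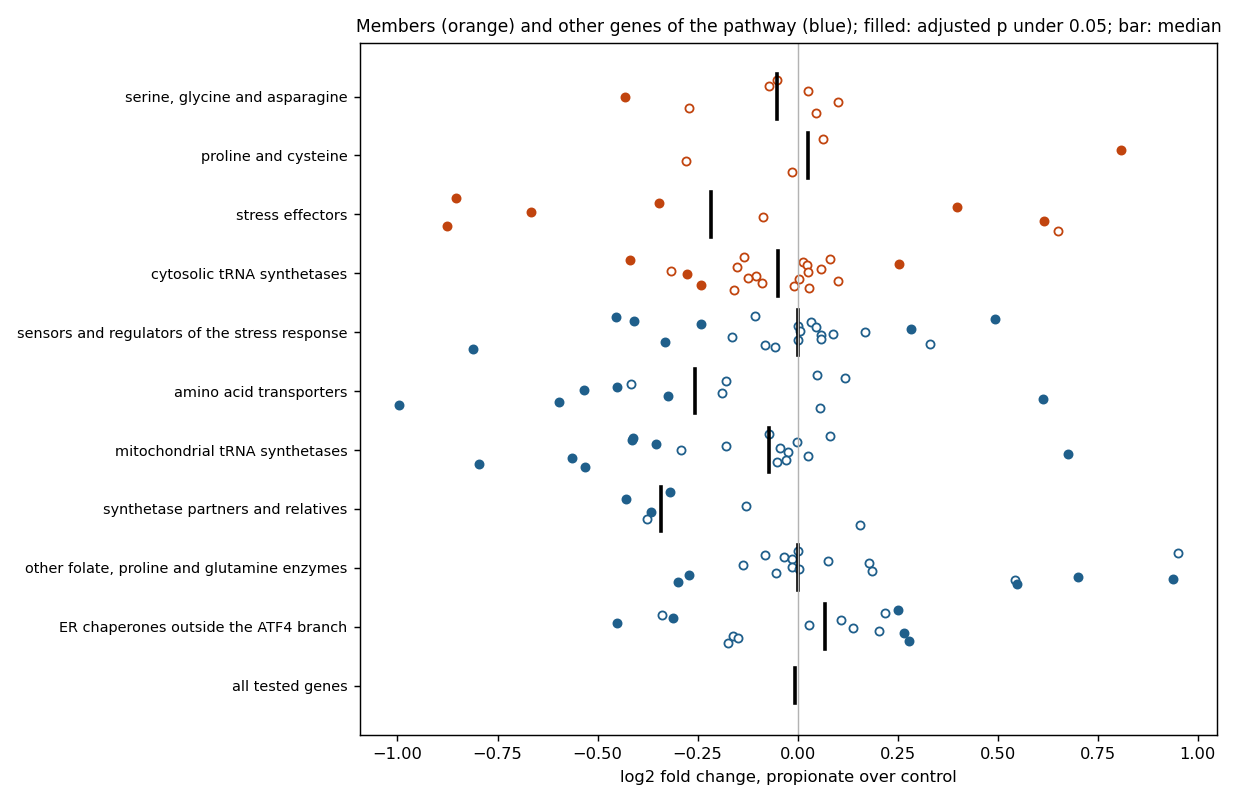
Log2 fold change (propionate over control, x axis) of the members by role and of the other lists of the pathway; each point is a gene, filled points passed an adjusted p under 0.05, and bars are list medians. Amino acid transporters had a median of -0.26 and stress effectors of -0.22, against -0.01 over all tested genes.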

How the data were processed

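Each library's table, as deposited, holds unnormalized counts of reads by gene symbol, for 3 propionate and 3 control libraries. Per the labels' protocols, RNA was prepared with a Lexogen QuantSeq kit. The submitters' processing notes name Bowtie2, edgeR, hg19 and GRCh37. Which program counted reads, with which strand setting and annotation, is not given in the sources used here. Counts of symbols on several lines were summed (of the members, VARS alone had several lines). A count of 3 reads equalled 0.235 to 0.259 CPM, and the lowest read totals among the members were those of VLDLR.

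The test was the quasi-likelihood F test of edgeR 4.0.16 under R 4.3.3, with TMM factors, genes kept by filterByExpr, no covariate, Benjamini-Hochberg adjustment over 13605 genes, both directions. The procedure was run on simulated counts with known changes. Those libraries were independent, without pairs and without a GC trend, so the run does not bear on either of these. Alternatives were DESeq2 1.42.0, limma-voom (limma 3.58.1), other factors, filters and thresholds, each library left out, the replicate block, and the block with each library's spline trend (4 degrees of freedom) on GENCODE 29 transcript GC content removed, for the 12722 tested genes with a GC value. Same-numbered libraries deviated together from their group means (correlations 0.24, 0.396 and 0.442), so the numbers were taken as pairs. Other combinations had -0.354 to 0.00985. As deviations were taken from the group mean, positive values for same-numbered libraries draw the others down, which are thus no separate sign of pairing. The pairing rests on these correlations from the same data, since the labels name no common day or batch. Libraries of a group differed by more than counting noise (chi-square per degree of freedom 6.01 to 8.85). Older symbols were matched to RefSeq names through GENCODE 29 gene IDs.

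The members and the lists were chosen with earlier results of these data known. All members are accounted for. Values per library are given for members that passed and for a set of well-known ones, and of the other lists ATF4, ATF3, DDIT3, TRIB3 and up to 3 genes per direction by p are named. Some results of the other lists are not reported here.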

Additional observations from a re-analysis of the deposited data

How the results depend on the processing

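The 12 called members kept their direction under every alternative run, and STC2, ATF5, NUPR1, SESN2, CBS, PSAT1 and DARS passed 0.05 in each. At an adjusted p under 0.01, 2 members were higher and 5 lower, against 4 and 8, and 1424 genes in all were lower, against 2316. With the replicate block 4 members were higher and 12 lower, SHMT1, IARS, GARS and NARS being added, and no call of a member was lost. With the block and the GC correction 6 were higher and 11 lower, and the median log2 fold change was -0.10 for serine, glycine and asparagine genes, -0.014 for proline and cysteine genes and -0.39 for stress effectors. Leaving out each library gave 2 to 4 members higher and 6 to 9 lower, 2 higher without control library 2 (DDIT4 and FARSA lost); role medians ran from -0.095 to 0.083 (serine, glycine and asparagine), from -0.021 to 0.060 (proline and cysteine) and from -0.095 to 0.0011 (synthetases). The cause of these differences was not tested.

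Members that did not pass and had log2 fold changes near 0 changed sign in some settings. With the block and GC correction ASNS was at 0.049, PHGDH at -0.10, SHMT2 at -0.11, MTHFD2 at 0.070 and QARS at -0.072, and the called chaperone gene SDF2L1 was at -0.0081. With upper-quartile factors and library totals PYCR1 was at 0.011 and 0.0018 and VARS at 0.017 and 0.0087, and with no filter QARS was at -0.0011. Leaving out each library gave ranges of -0.19 to 0.11 for ASNS, -0.053 to 0.092 for PHGDH, -0.061 to 0.21 for PSPH, -0.037 to 0.13 for SHMT2, -0.051 to 0.18 for ALDH18A1, -0.067 to 0.073 for PYCR1, -0.16 to 0.018 for PPP1R15A, -0.059 to 0.074 for EPRS, -0.0087 to 0.044 for FARSB, -0.015 to 0.050 for KARS, -0.027 to 0.053 for QARS, -0.057 to 0.037 for VARS, -0.019 to 0.089 for WARS, -0.21 to 0.0073 for ATF3 and -0.047 to 0.11 for DDIT3.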

Other observations

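Other folate and proline enzymes outside the members included genes called in both directions: of 18 tested, 3 were higher and 2 lower, 27.8% of the list against 34.2% of all tested genes. MTHFD2L, a relative of MTHFD2, was 1.63-fold higher (edgeR adjusted p = 0.00643), while MTHFD2 did not pass. PYCRL was 1.46-fold higher (edgeR adjusted p = 0.000839). MTHFD1L was 1.21-fold lower (edgeR adjusted p = 0.0365), a call lost without control library 1, control library 2, propionate library 2 or propionate library 3 (adjusted p between 0.0756 and 0.122) and with upper-quartile factors (adjusted p = 0.05895).

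Genes for chaperones and other proteins of the endoplasmic reticulum, which the unfolded protein response raises, showed small differences. Of 14, 3 were higher and 2 lower, 35.7% of the list against 34.2% of all tested genes. Which branch of that response, the ATF4 branch included, had a part in this was not tested. HERPUD1 was 1.37-fold lower (edgeR adjusted p = 0.00376). The higher genes CALR, MANF and SDF2L1 had log2 fold changes between 0.25 and 0.28. CALR lost its call without control library 2, control library 3, propionate library 1 or propionate library 2 (adjusted p between 0.0592 and 0.0711). MANF lost its call without control library 1, control library 2, propionate library 1 or propionate library 3 (adjusted p between 0.0941 and 0.198). SDF2L1 lost its call without control library 3, propionate library 1 or propionate library 2 (adjusted p between 0.0645 and 0.191). The other lower gene, DNAJC3, lost its call without the same 3 libraries (adjusted p between 0.0556 and 0.077). It also did not pass with the block and the GC trend removed (log2 fold change -0.16, edgeR adjusted p = 0.088).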
